A study of Mus musculus with 12 samples.

Results

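Pyrimidine metabolism genes were followed in the mouse intestine 48 h after 10 Gy total body irradiation (TBI) given at a low or at an ultra-high dose rate. The set holds every gene whose annotation in the deposited table carries the KEGG term for pyrimidine metabolism (ko00240) and none of the terms for DNA replication, base excision repair, nucleotide excision repair, mismatch repair or homologous recombination. It has 57 genes of 22063 in the table, and the exclusions removed 0 genes. Of the 57 genes, 31 also carry the term for purine metabolism, 25 the term for drug metabolism by other enzymes, and 11 neither. The groups, with 3 libraries each, were LL_TBI, irradiated on a conventional clinical Elekta accelerator with low mean and low instantaneous dose rate, its own unirradiated controls LL_Ctrl, HH_TBI, irradiated on a compact linear accelerator with ultra-high mean and instantaneous dose rate, and its own unirradiated controls HH_Ctrl. All mice were female C57BL6/J, bought at 7 to 8 weeks of age and acclimated before irradiation, with no transgene or deletion named. The irradiated mice were anaesthetised with avertin, and the sources used here do not say whether the controls were. The sample labels write WBI for the same exposure. Mode and machine coincide in this design, so they cannot be told apart. The sources used here do not say whether the 3 libraries of a group are 3 mice, and the p-values therefore reflect only how far these libraries vary.

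Pyrimidine nucleotides carry uracil, cytosine or thymine. Cells build UMP anew from glutamine, bicarbonate and aspartate, recover it from uridine and cytidine by salvage, and turn it into UTP and CTP for RNA, while ribonucleotide reductase and thymidylate synthase divert part of the pool into the deoxynucleotides that DNA synthesis consumes. The crypts of the intestine divide fast and are a major consumer of deoxynucleotides, and the absorptive lining carries transporters, phosphatases and catabolic enzymes that handle nucleosides from the diet.

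Levels are given as FPKM (fragments scaled to the length of the transcript and to the mapped fragments of a library). This scaling does not correct for libraries that differ in composition, and median-ratio factors ran from 0.828 in LL_TBI 2 to 1.094 in LL_Ctrl 2. Genes that averaged 0.5 FPKM or more across the groups compared were tested with limma on log2(FPKM + 0.1), a scale that understates the change of low genes. A gene is called upregulated or downregulated at a Benjamini-Hochberg adjusted p under 0.05 over all genes tested together with an absolute log2 fold change above 1. The read depth is unknown, since the files give no counts. The LL_TBI group is uneven: the summed level of 18 pancreatic acinar genes, a list that includes the goblet cell gene Zg16, made up 6.17% of the FPKM of LL_TBI 1 and 21.2% of those of LL_TBI 2, against 0.436% to 0.849% in the other 10 libraries. The 57 genes together held 0.189% of the summed FPKM in LL_TBI 2 and 0.209% in LL_TBI 3, against 0.222% to 0.293% in the other 10. Scaling by median ratios moved the median log2 fold change of all genes from -0.12 to 0.02 in LL_TBI against LL_Ctrl, from -0.13 to 0.01 in HH_Ctrl against LL_Ctrl and from 0.18 to 0.01 in the difference between the responses. Small changes in these comparisons are therefore read relative to the median of all genes.

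After HH irradiation 2 of the 50 tested pyrimidine metabolism genes were upregulated, Cmpk1 and Entpd1, where 10.0% of all 12760 tested genes were. In the other direction 3 were downregulated, Tk1, Dctpp1 and Tyms, all enzymes that supply or clear deoxynucleotides, where 2.38% of all genes were. By the adjusted p alone, without the limit on size, 8 rose and 16 fell, against 22.1% and 14.1% of all genes. The median log2 fold change of the 50 genes was -0.24, beside 0.09 over all genes tested. Values of the irradiated and control libraries did not overlap for 10 genes that were higher and 22 that were lower after HH irradiation, where 30.1% and 21.7% of all genes did so.

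After LL irradiation 1 of the same 50 genes was upregulated, Nme4, where 0.170% of 12946 tested genes were, and 0 were downregulated, where 0.0772% of all genes were. Limma gave 15 of the 50 genes an unadjusted p under 0.05, 7 of them higher and 8 lower, beside 18.3% of all genes. The median log2 fold change was -0.04 beside -0.12 over all genes. Groups did not overlap for 9 genes that were higher and 9 that were lower, where 9.90% and 19.0% of all genes did so. The median standard error of the 50 log2 fold changes was 0.23 in this comparison and 0.16 in the HH mode. A count of calls that differs between the modes does not show that the responses differ, and the difference itself was fitted over all 12 libraries, with its results given after the roles.

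**Figure D1:**
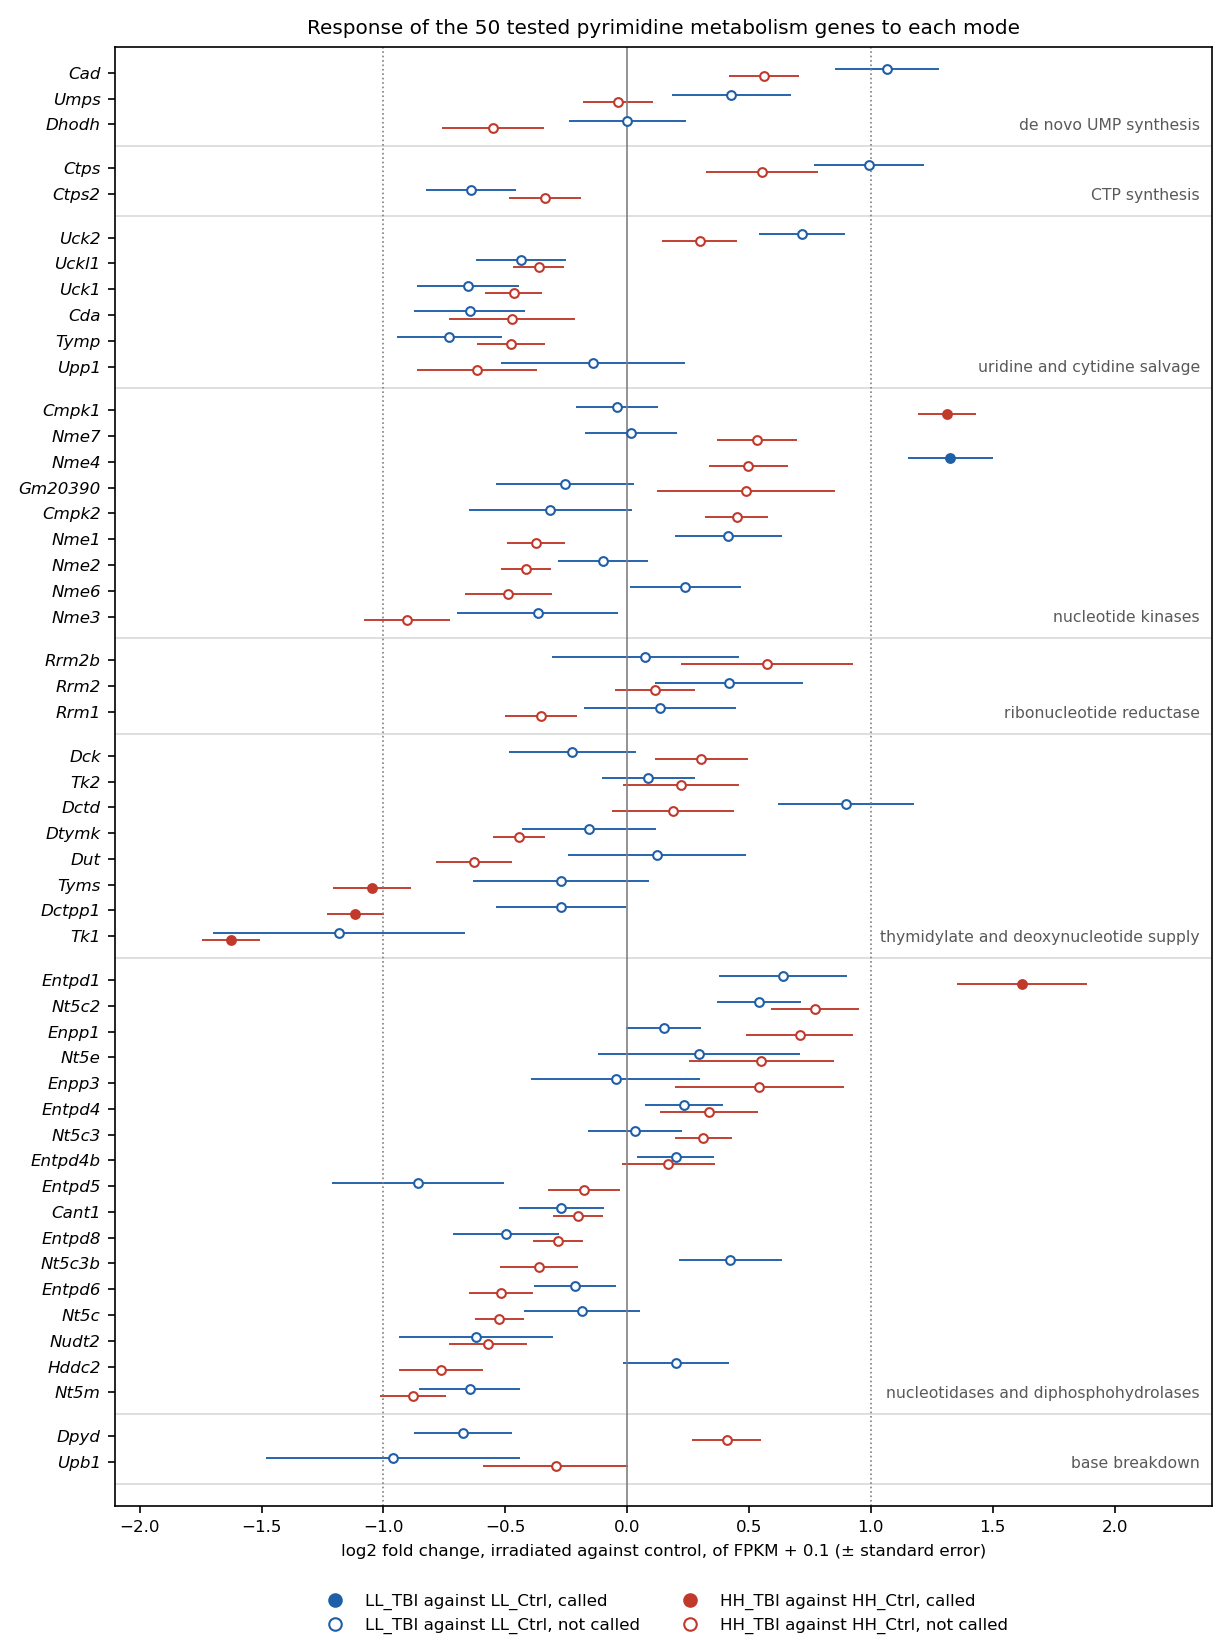
Log2 fold change (x axis, of FPKM + 0.1, with its standard error) of each of the 50 tested pyrimidine metabolism genes (y axis, grouped by role), in LL_TBI against LL_Ctrl (blue) and in HH_TBI against HH_Ctrl (red). Filled points were called, and dotted lines mark a log2 fold change of 1 in either direction. After HH irradiation Tk1 lies at -1.63 and Entpd1 at 1.62, the ends of the range.

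The deoxynucleotide branch held the 3 members that HH irradiation downregulated. Tk1, the cytosolic thymidine kinase that salvages thymidine in dividing cells, was at 17.1, 19.4 and 18.6 FPKM in HH_Ctrl 1, 2 and 3 and at 6.0, 6.36 and 5.31 FPKM in HH_TBI. All HH_TBI libraries lay below all HH_Ctrl libraries, and on the log2 scale Tk1 fell by 1.63 (standard error 0.12, adjusted p = 0.000776), the largest decrease among the members. In the LL mode Tk1 was at 14.6, 13.2 and 11.5 FPKM in LL_Ctrl and at 14.6, 3.12 and 4.01 FPKM in LL_TBI. LL_TBI 2 and 3 were below every control, while LL_TBI 1 was within the range of the 6 controls, and the gene was not called (-1.18 ± 0.52, adjusted p = 0.282). Without LL_TBI 1, Tk1 was called in the LL comparison with a log2 fold change of -1.85 (adjusted p = 0.0156). In that fit 2.61% of all genes were downregulated, against 0.0772% with all libraries, and LL_TBI 2, the library richest in acinar transcripts, remained.

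Tyms, thymidylate synthase, makes dTMP from dUMP and was at 16.2, 22.2 and 19.5 FPKM in HH_Ctrl and 8.64, 8.33 and 10.9 FPKM in HH_TBI. The groups did not overlap, and Tyms fell by 1.05 (standard error 0.16, adjusted p = 0.00317). This lies close to the limit on size: without HH_Ctrl 2, HH_TBI 1 or HH_TBI 2 the log2 fold change was -0.94, -1.0 or -0.97, and the gene was not called. It was also not called with a pseudocount of 1 (-0.98), against all 6 control libraries (-0.98) or with LL_Ctrl in place of HH_Ctrl (-0.91), always with an adjusted p under 0.05. Dctpp1, which hydrolyses dCTP and modified cytosine nucleotides, was at 31.4, 34.9 and 32.6 FPKM in HH_Ctrl and 13.4, 17.0 and 15.2 FPKM in HH_TBI. Every HH_TBI value was under 20 FPKM and every HH_Ctrl value above 30, and Dctpp1 fell by 1.12 (standard error 0.12, adjusted p = 0.00108). Its call was lost with trends on GC content and length removed (-0.92) and with LL_Ctrl in place of HH_Ctrl (-0.96), also on the limit of size alone. In LL_TBI, Tyms was at 27.3, 10.8 and 10.2 FPKM and Dctpp1 at 37.0, 18.1 and 21.8 FPKM. For both genes LL_TBI 1 was the highest of all 12 libraries and LL_TBI 2 and 3 were below all 6 controls, and neither was called in the LL mode (Tyms -0.27 ± 0.36, adjusted p = 0.694, and Dctpp1 -0.27 ± 0.27, adjusted p = 0.593).

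Dut, the dUTPase that keeps uracil out of DNA, and Dtymk, which phosphorylates dTMP, passed the adjusted p but not the limit on size after HH irradiation. Dut went from 13.6, 17.8 and 17.4 FPKM in HH_Ctrl to 9.83, 12.3 and 9.37 FPKM in HH_TBI, without overlap (-0.63 ± 0.16, adjusted p = 0.0176). Dtymk was at 17.9 to 19.4 FPKM in HH_Ctrl and 12.5 to 14.7 FPKM in HH_TBI (-0.44 ± 0.11, adjusted p = 0.0163). The remaining enzymes of this role did not pass. Dctd, which deaminates dCMP to dUMP, was higher in LL_TBI (7.58, 4.44 and 3.73 FPKM) than in LL_Ctrl (2.39, 2.51 and 3.07 FPKM) without overlap, but was not called (0.90 ± 0.28, adjusted p = 0.206). Dck, deoxycytidine kinase, and Tk2, the mitochondrial thymidine kinase, had log2 fold changes of -0.22 and 0.09 after LL and of 0.30 and 0.22 after HH irradiation, with adjusted p of at least 0.245.

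Ribonucleotide reductase, the enzyme that makes deoxynucleotides from ribonucleotides, had no subunit past the threshold after either mode. Rrm2, its small subunit of S phase, was at 12.5, 10.7 and 10.5 FPKM in HH_Ctrl and 13.8, 13.4 and 9.65 FPKM in HH_TBI, with overlapping groups (0.11 ± 0.16, adjusted p = 0.613). In the LL mode Rrm2 was at 9.49, 10.7 and 9.19 FPKM in LL_Ctrl and 20.8, 12.4 and 8.65 FPKM in LL_TBI, where LL_TBI 1 stood above the other 11 libraries (0.42 ± 0.30, adjusted p = 0.467). Rrm1, the large catalytic subunit, had log2 fold changes of 0.13 ± 0.31 after LL and -0.35 ± 0.15 after HH irradiation and passed in neither (adjusted p = 0.827 and 0.0978). The ratio of Tk1 to Rrm2 levels was 1.24 to 1.54 in LL_Ctrl and 1.37 to 1.82 in HH_Ctrl, and 0.251 to 0.702 in LL_TBI and 0.435 to 0.551 in HH_TBI. All 6 irradiated libraries lay below all 6 controls in this ratio, LL_TBI 1 included. The ratios of Tyms and of Dut to Rrm2 overlapped, with Tyms to Rrm2 at 1.29 in HH_Ctrl 1 and 1.31 in LL_TBI 1, and Dut to Rrm2 at 1.09 in HH_Ctrl 1 and up to 1.27 in LL_TBI. The ratios were chosen after the values were seen and have no test.

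Rrm2b, the small subunit that p53 induces after DNA damage, was low in every group, at 1.26, 1.58 and 1.76 FPKM in LL_Ctrl and 1.02, 1.34 and 2.96 FPKM in LL_TBI. In the HH mode it was at 0.7, 0.866 and 0.534 FPKM in HH_Ctrl and 1.63, 1.09 and 0.69 FPKM in HH_TBI. The irradiated and control values overlapped in both modes, and Rrm2b was not called after LL (0.07 ± 0.39, adjusted p = 0.926) or HH irradiation (0.57 ± 0.35, adjusted p = 0.235). Of 12 other p53 targets, among them Cdkn1a, Mdm2 and Phlda3, 6 were upregulated after LL and 11 after HH irradiation, where 0.170% and 10.0% of all genes were. All 12 were higher without overlap in both modes, where 9.90% and 30.1% of all genes were, with medians of 1.47 and 1.59. The summed level of the 12 was 184 to 197 FPKM in LL_Ctrl, 336 to 526 in LL_TBI, 207 to 269 in HH_Ctrl and 443 to 485 in HH_TBI.

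**Figure D2:**
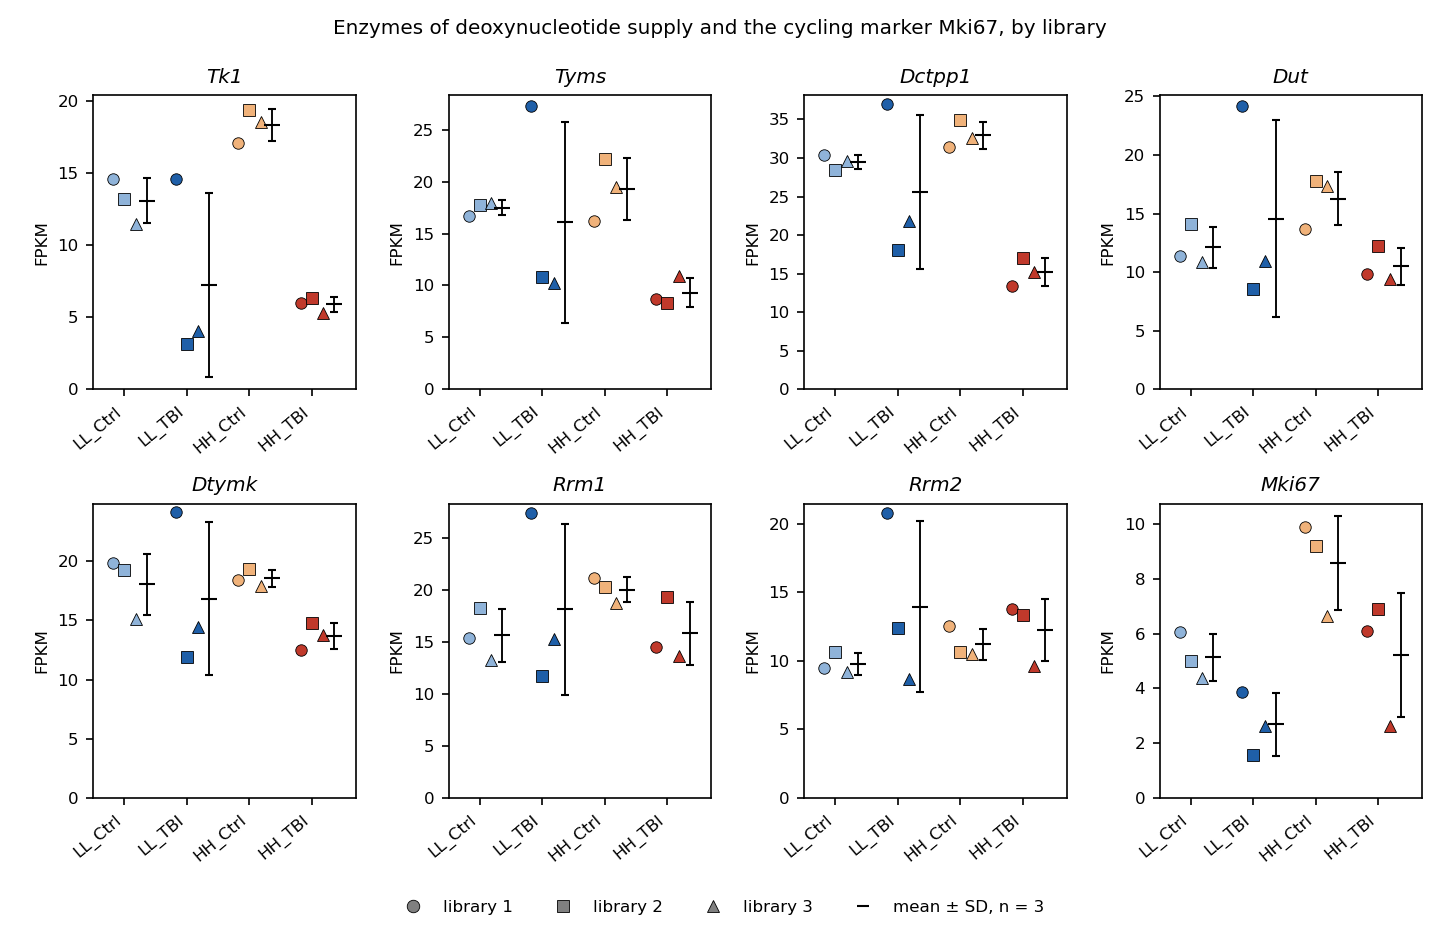
FPKM (y axes, from 0) of 7 deoxynucleotide enzymes and of the cycling marker Mki67 in each library (symbols) of the 4 groups (x axes), with the mean and SD of 3 libraries beside them. Tk1, Tyms and Dctpp1 separate HH_TBI from HH_Ctrl while Rrm2 does not, and LL_TBI 1 is the highest of the 12 libraries for Tyms, Dctpp1, Dut, Dtymk, Rrm1 and Rrm2.

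Markers of dividing cells varied beside this branch, most widely within LL_TBI. The summed level of 22 proliferation genes, which include Mki67, Top2a and the Mcm2 to Mcm7 helicase genes and none of the pyrimidine metabolism genes, was 296 to 340 FPKM in LL_Ctrl and 292 to 341 FPKM in HH_Ctrl, against 487, 180 and 214 FPKM in LL_TBI 1, 2 and 3 and 198 to 262 FPKM in HH_TBI. By the call, 0 of the 22 changed after LL irradiation and 1 fell after HH irradiation, with medians of -0.33 and -0.43, and by the adjusted p alone 9 fell and 1, Mcm4, rose after HH irradiation (0.76 ± 0.17, adjusted p = 0.0134), where 14.1% and 22.1% of all genes did. None of the 22 was at 0 in all libraries. Of the 11 members of ribonucleotide reductase and deoxynucleotide supply, 9 had their highest LL_TBI value in LL_TBI 1 and 0 in LL_TBI 2. The part of the marker sums in these results was not tested, and in bulk tissue fewer cells of a type and less RNA per cell cannot be told apart.

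The promoters of the 3 downregulated enzymes and of Rrm2 are shown because the first 3 fell after HH irradiation and Rrm2, an enzyme of the same route, did not pass the test. The RefSeq promoters used here (build GRCm38.p6, 250 bases before to 50 after the start) covered 51 of the 57 genes. Tk1 lies on the minus strand at chr11:117825965-117826264, Tyms on the minus strand at chr5:30073576-30073875, Dctpp1 on the minus strand at chr7:127260618-127260917 and Rrm2 on the plus strand at chr12:24708004-24708303. Capitals mark the CCAAT box, CCAAT or its reverse complement ATTGG, the one of 3 searched elements that occurs in these windows.
Tk1: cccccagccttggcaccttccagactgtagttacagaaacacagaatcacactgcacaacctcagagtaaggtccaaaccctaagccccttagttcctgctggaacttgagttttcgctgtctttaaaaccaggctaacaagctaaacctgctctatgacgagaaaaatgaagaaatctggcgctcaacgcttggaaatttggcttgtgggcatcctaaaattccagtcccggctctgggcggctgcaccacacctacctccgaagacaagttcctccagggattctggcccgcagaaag
Tyms: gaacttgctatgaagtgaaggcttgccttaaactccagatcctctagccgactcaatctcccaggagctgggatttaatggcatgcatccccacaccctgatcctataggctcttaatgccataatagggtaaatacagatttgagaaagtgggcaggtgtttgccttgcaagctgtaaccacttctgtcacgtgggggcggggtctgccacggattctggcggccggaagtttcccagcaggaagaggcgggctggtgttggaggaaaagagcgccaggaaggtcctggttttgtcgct
Dctpp1: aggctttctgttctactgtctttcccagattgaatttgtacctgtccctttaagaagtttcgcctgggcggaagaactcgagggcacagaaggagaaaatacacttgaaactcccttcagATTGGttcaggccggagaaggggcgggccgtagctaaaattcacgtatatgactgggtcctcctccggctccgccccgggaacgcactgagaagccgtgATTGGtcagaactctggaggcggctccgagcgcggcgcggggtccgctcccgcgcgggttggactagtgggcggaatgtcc
Rrm2: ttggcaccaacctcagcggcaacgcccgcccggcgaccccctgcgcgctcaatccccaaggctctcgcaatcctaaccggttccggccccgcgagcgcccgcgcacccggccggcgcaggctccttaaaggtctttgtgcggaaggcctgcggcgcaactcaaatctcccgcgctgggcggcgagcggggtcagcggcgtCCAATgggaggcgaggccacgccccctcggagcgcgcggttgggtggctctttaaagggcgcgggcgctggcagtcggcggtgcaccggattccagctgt
Dctpp1 holds the element on the reverse strand 130 and 31 bases before its start, Rrm2 holds it 50 bases before its start, and the Tk1 and Tyms windows hold no match. The 51 genes have 73 of the promoters used here, of which 27.4% held at least 1 match, beside 37.4% of all 32851 of this length. The E2F letters TTTCCCGC, TTTGGCGC, TTTCGCGC and TTTGCCGC were matched on either strand in 1.37% of the 73 (2.26% of all promoters), and the cell cycle homology letters TTTGAA and TTCGAA in 16.4% (19.2% of all promoters). These matches are a description of the letters in the windows.

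In the synthesis of UMP the entry enzyme was higher after both modes. Cad, the multifunctional protein that starts pyrimidine synthesis, was at 3.35, 4.14 and 2.53 FPKM in LL_Ctrl and 7.59, 7.11 and 6.30 FPKM in LL_TBI. It was at 4.0, 3.52 and 3.79 FPKM in HH_Ctrl and 6.04, 5.74 and 5.07 FPKM in HH_TBI. All 6 irradiated libraries were above all 6 controls, which held for 2 members, Cad and Nme4, and for 3.26% of all genes. Cad passed the adjusted p but not the limit on size after HH irradiation (0.56 ± 0.14, adjusted p = 0.0196) and, with a log2 fold change of 1.07 ± 0.21, missed the adjusted p after LL irradiation (adjusted p = 0.128). In a fit of all 12 libraries together, where the groups share 1 estimate of the spread, Cad was called after LL irradiation (adjusted p = 0.0119). In that fit 1.2% of all genes were upregulated.

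No enzyme of the later steps was called. Umps, which converts orotate to UMP, was at 8.96, 5.34 and 4.97 FPKM in LL_TBI and 4.39 to 4.96 FPKM in LL_Ctrl, with LL_TBI 1 far above the others (0.43 ± 0.24, adjusted p = 0.376), and gave -0.04 ± 0.14 after HH irradiation. Dhodh, the mitochondrial dihydroorotate dehydrogenase, gave 0.00 ± 0.24 after LL and -0.55 ± 0.21 after HH irradiation (adjusted p = 0.998 and 0.0741), in the HH mode without overlap. CTP synthase is encoded by a pair of genes, and these differed in sign. Ctps was at 4.06, 4.83 and 3.82 FPKM in LL_Ctrl and 9.33, 6.25 and 10.5 FPKM in LL_TBI, all irradiated libraries above all controls (0.99 ± 0.23, adjusted p = 0.155). Ctps2 was at 10.2, 8.79 and 10.3 FPKM in LL_Ctrl and 6.01, 7.54 and 5.28 FPKM in LL_TBI, all irradiated libraries below all controls (-0.64 ± 0.18, adjusted p = 0.186). After HH irradiation Ctps gave 0.55 ± 0.23 and Ctps2 -0.34 ± 0.15, and neither gene was called in any comparison, although Ctps2 passed the adjusted p between the controls (-0.66 ± 0.10, adjusted p = 0.00174).

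Uridine and cytidine salvage showed the same opposition between paralogs. Uck2, a uridine-cytidine kinase, was at 23.1, 22.4 and 18.8 FPKM in LL_Ctrl and 40.4, 31.1 and 34.7 FPKM in LL_TBI, without overlap (0.72 ± 0.18, adjusted p = 0.164). Its paralog Uck1 was at 25.0, 28.3 and 28.6 FPKM in LL_Ctrl and 22.9, 14.8 and 15.3 FPKM in LL_TBI, without overlap in the other direction (-0.65 ± 0.21, adjusted p = 0.208). After HH irradiation Uck1 passed the adjusted p (-0.47 ± 0.12, adjusted p = 0.0185) and Uck2 did not (0.30 ± 0.15, adjusted p = 0.163). The difference in direction between the paralogs was not tested.

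Uckl1, the third kinase of this family, and Tymp, thymidine phosphorylase, were lower in all 6 irradiated libraries than in all 6 controls, as was Nt5m, the mitochondrial deoxyribonucleotidase. This held for 3 members and for 3.89% of all genes. Tymp had 10.4, 6.21 and 7.90 FPKM in LL_TBI, 9.76, 11.4 and 10.0 FPKM in HH_TBI and 12.4 to 17.0 FPKM in the controls, and Uckl1 was at 8.22 to 12.1 FPKM in the irradiated libraries and 12.4 to 14.3 FPKM in the controls. Nt5m had 6.26, 3.76 and 4.80 FPKM in LL_TBI, 4.07, 5.05 and 4.55 FPKM in HH_TBI and 7.39 to 8.80 FPKM in the controls. After HH irradiation all 3 passed the adjusted p below the limit on size, with -0.88 for Nt5m (adjusted p = 0.00328), -0.47 for Tymp (adjusted p = 0.032) and -0.36 for Uckl1 (adjusted p = 0.0296). After LL irradiation they had -0.65, -0.73 and -0.43 and passed nothing (adjusted p = 0.208, 0.192 and 0.271). Tymp and Uckl1 each overlap another gene on the same strand, Sco2 and Zfp512b, so their values are uncertain to that extent.

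Cda, cytidine deaminase, was among the most abundant members, at 208, 240.3 and 222 FPKM in LL_Ctrl and 193, 121 and 124 FPKM in LL_TBI. In the HH mode Cda was at 179, 204 and 128 FPKM in HH_Ctrl and 118, 169.7 and 87.8 FPKM in HH_TBI. The LL groups did not overlap and the HH groups did, and the gene was called in neither mode (-0.65 ± 0.23 and -0.47 ± 0.26, adjusted p = 0.226 and 0.19). Upp1, uridine phosphorylase, ranged from 54.9 to 159 FPKM within LL_TBI alone and gave -0.14 ± 0.38 after LL and -0.61 ± 0.25 after HH irradiation (adjusted p = 0.852 and 0.0872).

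**Figure D3:**
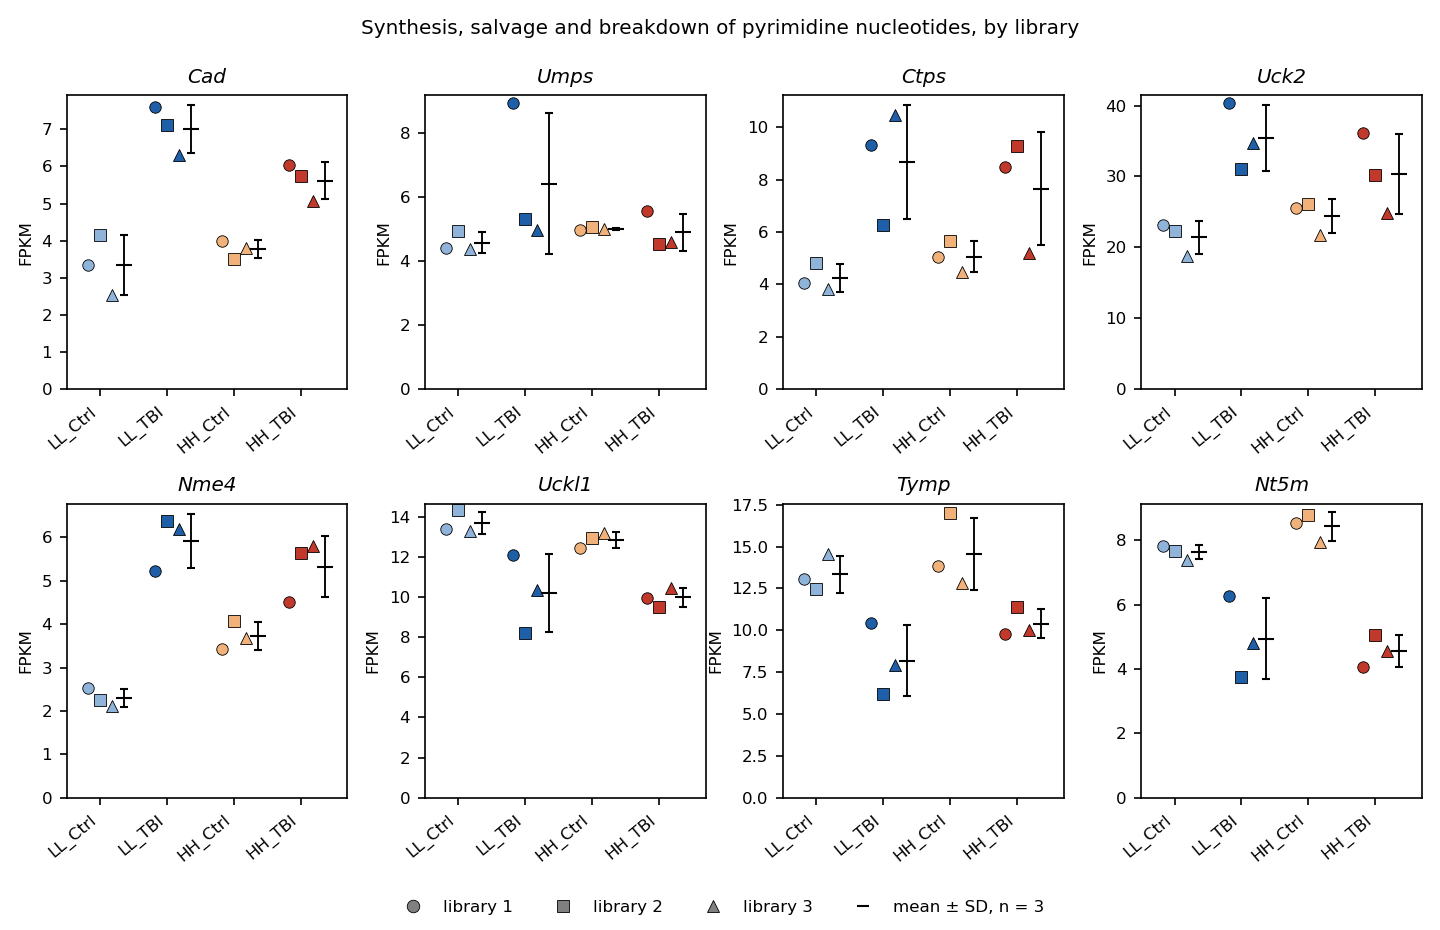
FPKM (y axes, from 0) of 8 genes of pyrimidine nucleotide synthesis, salvage and breakdown in each library (symbols) of the 4 groups (x axes), with the mean and SD of 3 libraries. Cad and Nme4 are above every control in all 6 irradiated libraries, and Uckl1, Tymp and Nt5m are below every control.

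Among the nucleotide kinases, which phosphorylate the monophosphates and diphosphates, each mode had 1 upregulated gene. Nme4, the mitochondrial nucleoside diphosphate kinase, was at 2.52, 2.26 and 2.12 FPKM in LL_Ctrl and 5.22, 6.38 and 6.18 FPKM in LL_TBI. The LL_TBI libraries were all above the LL_Ctrl libraries by more than the spread within either group, and Nme4 rose by 1.33 (standard error 0.17, adjusted p = 0.0367). The call was lost without LL_Ctrl 1, LL_Ctrl 2, LL_Ctrl 3 or LL_TBI 2 (adjusted p = 0.21, 0.28, 0.256 and 0.124), with the log2 fold change between 1.27 and 1.42 over all 6 libraries left out in turn. In the HH mode Nme4 was at 3.42, 4.08 and 3.69 FPKM in HH_Ctrl and 4.52, 5.65 and 5.81 FPKM in HH_TBI, again without overlap, and passed the adjusted p but not the limit on size (0.50 ± 0.16, adjusted p = 0.0445). The HH_Ctrl values lay between those of LL_Ctrl and the irradiated groups.

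Cmpk1, the UMP-CMP kinase of the cytosol, showed a different arrangement. It was at 42.3, 44.1 and 37.9 FPKM in HH_Ctrl and at 100.3, 92.8 and 117 FPKM in HH_TBI, a log2 increase of 1.31 (standard error 0.12, adjusted p = 0.00087). In LL_Ctrl it was already at 110.2, 99.4 and 108 FPKM, and in LL_TBI at 100.8, 93.0 and 115 FPKM (-0.04 ± 0.17, adjusted p = 0.904). HH_Ctrl was thus the group that stood apart, and the HH_TBI values overlapped those of both LL groups. With LL_Ctrl in place of HH_Ctrl, the log2 fold change of HH_TBI was -0.04 (adjusted p = 0.815).

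The other nucleoside diphosphate kinases went different ways after HH irradiation. By the adjusted p alone Nme1, Nme2 and Nme3 fell and Nme7 rose. Nme3 had the largest change of these, from 8.19, 11.3 and 9.77 FPKM in HH_Ctrl to 4.63, 4.71 and 6.21 FPKM in HH_TBI (-0.90 ± 0.18, adjusted p = 0.00753), without overlap, and it passed the limit on size without HH_Ctrl 1 (-1.02) or without HH_TBI 3 (-1.04). Nme2, the most abundant of the family, gave -0.42 ± 0.10 (adjusted p = 0.0171), Nme1 -0.37 ± 0.12 (adjusted p = 0.0431) and Nme7 0.53 ± 0.16 (adjusted p = 0.0368). Nme6 had -0.49 ± 0.18 and missed the adjusted p (0.0663). Cmpk2, the mitochondrial UMP-CMP kinase, which interferon induces, was at 14.7, 13.4 and 16.0 FPKM in HH_Ctrl and 17.9, 23.0 and 19.5 FPKM in HH_TBI and rose below the limit on size (0.45 ± 0.13, adjusted p = 0.0305). After LL irradiation these 6 genes had log2 fold changes of -0.37 to 0.42 and adjusted p of at least 0.355. Nme3 overlaps Mrps34 on the same strand, and Gm20390 overlaps Nme1 and Nme2 on the same strand, which leaves the division of reads between them uncertain.

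Among the enzymes that remove phosphate, Entpd1 stood out. Entpd1 (CD39), which hydrolyses extracellular nucleotides and is known from macrophages, lymphocytes and endothelium, was at 2.45, 1.46 and 1.81 FPKM in HH_Ctrl and 7.98, 4.46 and 5.93 FPKM in HH_TBI. The groups did not overlap, and Entpd1 rose by 1.62 (standard error 0.27, adjusted p = 0.00416), the largest increase among the members. In the LL mode it was at 5.93, 5.70 and 6.18 FPKM in LL_Ctrl and 6.15, 10.5 and 12.5 FPKM in LL_TBI, with LL_TBI 1 within the control range (0.64 ± 0.26, adjusted p = 0.263). As with Cmpk1, HH_Ctrl was the low group, and with LL_Ctrl in place of HH_Ctrl the log2 fold change of HH_TBI was 0.005 (adjusted p = 0.989).

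Markers of macrophages and endothelium were, like Entpd1, low in HH_Ctrl and higher in HH_TBI. Of all genes 10.0% were upregulated and 2.38% downregulated after HH irradiation. The summed level of 8 macrophage genes, Adgre1 and Csf1r among them, was 171 to 216 FPKM in LL_Ctrl, 198 to 361 in LL_TBI, 31.9 to 70.2 in HH_Ctrl and 208 to 261 in HH_TBI, and 8 of 8 were upregulated after HH irradiation. The sum of 5 endothelial genes was 24.1 to 27.6 FPKM in LL_Ctrl, 20.3 to 37.3 in LL_TBI, 5.67 to 10.0 in HH_Ctrl and 18.8 to 31.6 in HH_TBI, and 5 of 5 were upregulated after HH irradiation. The same 8 and 5 genes were all called lower in HH_Ctrl than in LL_Ctrl, where 11.9% of all genes were. After LL irradiation and between the irradiated groups 0 of them were called. Of 5 T cell genes 0 were upregulated and 1 downregulated after HH irradiation, with a median log2 fold change of -0.58 and a sum of 27.1 to 35.1 FPKM in HH_Ctrl and 16.1 to 27.3 FPKM in HH_TBI. Of 6 B and plasma cell genes 1 was upregulated and 0 downregulated, with a median of -1.26 and a sum of 106 to 234 FPKM in HH_Ctrl and 258 to 376 FPKM in HH_TBI. No gene of these lists was at 0 in all libraries, and their part in the Entpd1 and Cmpk1 results was not tested.

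Of the other 16 tested nucleotidases and diphosphohydrolases, 2 rose and 5 fell after HH irradiation by the adjusted p alone, where 22.1% and 14.1% of all genes did. Nt5c2, a cytosolic purine nucleotidase, was at 3.26, 3.31 and 4.08 FPKM in HH_Ctrl and 6.71, 6.80 and 4.95 FPKM in HH_TBI (0.77 ± 0.18, adjusted p = 0.0147), and it was also without overlap in the LL mode, at 5.01, 5.01 and 5.30 against 7.66, 8.66 and 6.32 FPKM (0.54 ± 0.17, adjusted p = 0.207). Enpp1, an ectoenzyme that splits nucleoside triphosphates, gave 0.71 ± 0.22 (adjusted p = 0.0383). Besides Nt5m, the genes that fell were Hddc2, a deoxynucleotidase (-0.76 ± 0.17, adjusted p = 0.0129), Nt5c, the cytosolic deoxyribonucleotidase (-0.52 ± 0.10, adjusted p = 0.00694), Nudt2, which cleaves diadenosine tetraphosphate (-0.57 ± 0.16, adjusted p = 0.0272), and Entpd6 (-0.52 ± 0.13, adjusted p = 0.0202). After LL irradiation 0 of the 17 passed, where 0.170% of all genes passed as higher and 0.0772% as lower. Entpd5, a nucleoside diphosphatase of the endoplasmic reticulum, was at 96.2, 121 and 104 FPKM in LL_Ctrl and 102, 53.2 and 37.2 FPKM in LL_TBI, with LL_TBI 1 among the controls and the other 2 far below (-0.86 ± 0.35, adjusted p = 0.262). Without LL_TBI 1 the gene was called (-1.26, adjusted p = 0.0328), where 2.61% of all genes were downregulated. Entpd4 and Entpd4b are near-identical copies whose values may be split between them, and neither passed in any comparison.

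In the breakdown of uracil and thymine, Dpyd, the dihydropyrimidine dehydrogenase that sets the rate of this route and clears fluorouracil, went in opposite directions. It was at 51.6, 58.5 and 54.7 FPKM in LL_Ctrl and 36.6, 26.7 and 41.4 FPKM in LL_TBI, all irradiated libraries below all controls (-0.67 ± 0.20, adjusted p = 0.198). In the HH mode it was at 33.6, 26.4 and 31.4 FPKM in HH_Ctrl and 43.9, 34.3 and 43.5 FPKM in HH_TBI, all irradiated libraries above all controls (0.41 ± 0.14, adjusted p = 0.0551). Neither change passed by itself. The irradiated groups overlapped, and the controls were 51.6 to 58.5 FPKM in LL_Ctrl against 26.4 to 33.6 FPKM in HH_Ctrl (-0.85 ± 0.10, adjusted p = 0.00068). Upb1, the beta-ureidopropionase that completes the route, was lower by 0.96 ± 0.52 in LL_TBI and by 0.29 ± 0.30 in HH_TBI than in the controls of each mode and was not called (adjusted p = 0.361 and 0.466). Dpys, the enzyme between them, was at no more than 0.082 FPKM in any library and was not tested.

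Between the unirradiated groups 7 members were called. In HH_Ctrl against LL_Ctrl 2 members were higher, Nt5e and Upp1, where 2.31% of all 12595 tested genes were, and 5 were lower, Entpd1, Upb1, Cmpk1, Gm20390 and Rrm2b, where 11.9% were. By the adjusted p alone 12 were higher and 13 lower, against 13.0% and 31.8% of all genes, and the median over the 50 members was 0.08 beside -0.13 over all genes. Cmpk1 was lower by 1.35 (standard error 0.08, adjusted p = 9.09e-05) and Entpd1 by 1.62 (standard error 0.18, adjusted p = 0.000515). Upb1 was at 3.77, 6.35 and 8.13 FPKM in LL_Ctrl and 2.14, 2.25 and 1.38 FPKM in HH_Ctrl (-1.57 ± 0.30, adjusted p = 0.0045). Each of these 3 kept its call with any 1 library left out.

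Nt5e (CD73), the ectoenzyme that turns extracellular AMP into adenosine, was at 3.89, 9.87 and 10.6 FPKM in LL_Ctrl and 18.0, 25.6 and 17.3 FPKM in HH_Ctrl (1.42 ± 0.37, adjusted p = 0.0168). LL_Ctrl 1 was the lowest, and without it the log2 fold change was 0.96 and the gene was not called. Upp1 was at 135, 100.6 and 96.4 FPKM in LL_Ctrl and 278, 175 and 301 FPKM in HH_Ctrl, without overlap (1.16 ± 0.22, adjusted p = 0.00444). Rrm2b was lower by 1.04 (adjusted p = 0.00875), and without LL_Ctrl 3 or HH_Ctrl 3 the log2 fold change was -0.94 or -0.88 and the call was lost. The Rrm2b call was also lost with median-ratio scaling (-0.91), a pseudocount of 1 (-0.57), all libraries in 1 fit (adjusted p = 0.0698) and trends on GC content and length removed (-0.29, adjusted p = 0.334). Gm20390, a gene model that spans Nme1 and Nme2, was lower by 1.25 (adjusted p = 0.0191) and lost its call without LL_Ctrl 2, LL_Ctrl 3 or HH_Ctrl 1 (adjusted p = 0.0669, 0.0568 and 0.0153, the last with a log2 fold change of -0.84). Tk1 was higher in HH_Ctrl by 0.49 ± 0.11 (adjusted p = 0.00878), below the limit on size.

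**Figure D4:**
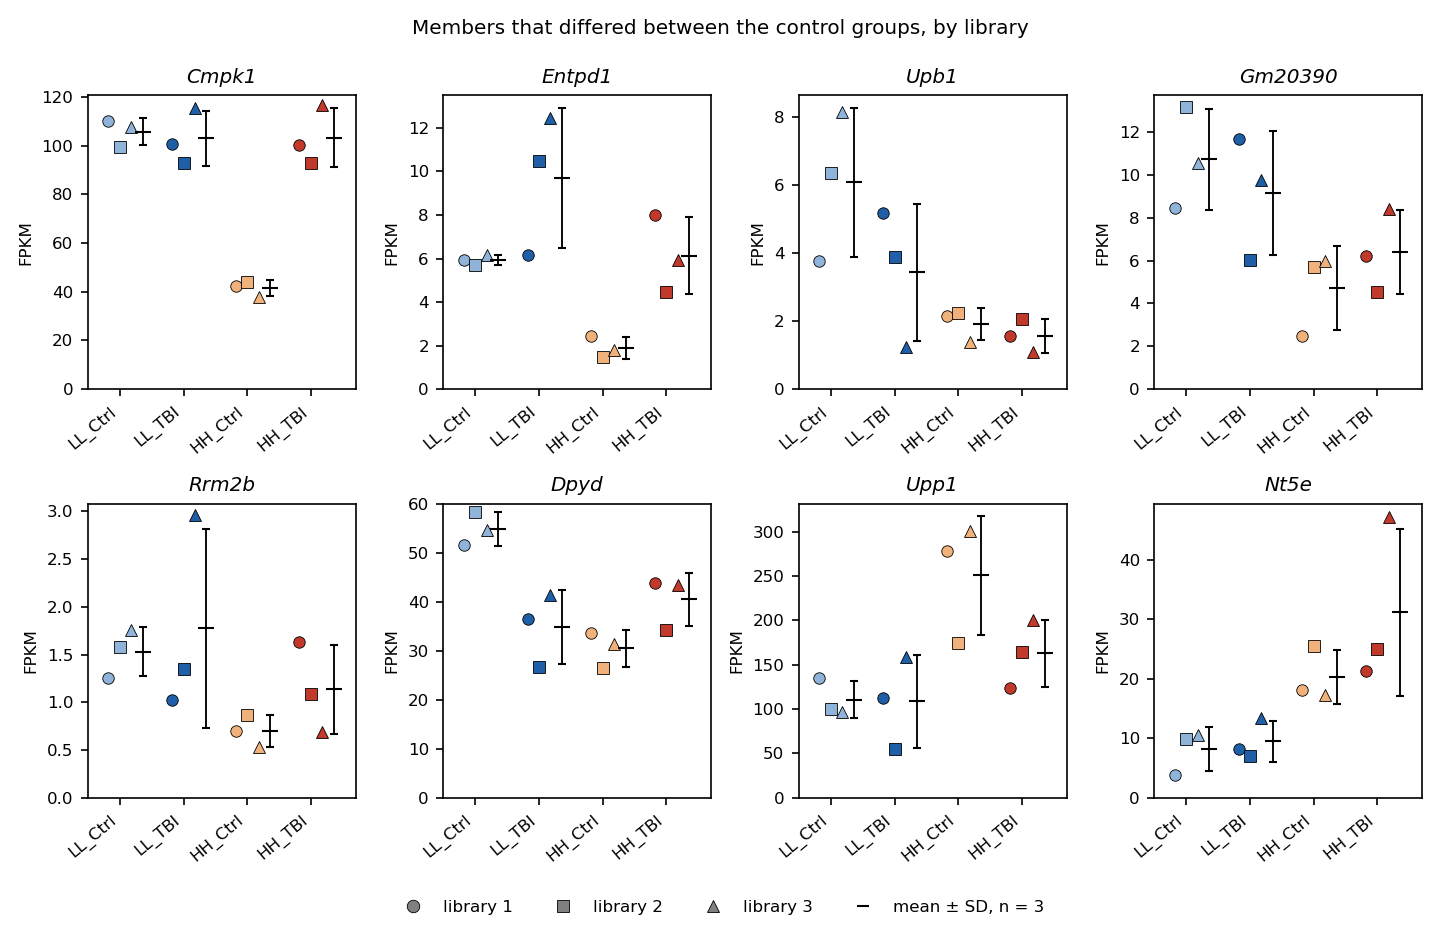
FPKM (y axes, from 0) of the 7 members called between the control groups and of Dpyd, in each library (symbols) of the 4 groups (x axes), with the mean and SD of 3 libraries. In HH_Ctrl, Cmpk1 is at 37.9 to 44.1 FPKM, below all other 9 libraries, and Upp1 and Nt5e are higher than in LL_Ctrl.

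The difference between the responses (HH_TBI against HH_Ctrl minus LL_TBI against LL_Ctrl, tested by the adjusted p alone) was past the threshold for 3 members. Cmpk1 (1.35, standard error 0.19, adjusted p = 0.01) and Dpyd (1.08, standard error 0.24, adjusted p = 0.0262) had the higher response in the HH mode, where 6.73% of all 12921 tested genes did. Nme4 (-0.83, standard error 0.22, adjusted p = 0.0442) had the higher response in the LL mode, where 0.635% of all genes did. All 3 were past the adjusted p between the control groups and not between the irradiated groups. Cmpk1 kept its call with any 1 of the 12 libraries left out. Dpyd lost it without LL_Ctrl 1, LL_Ctrl 2, LL_Ctrl 3, HH_Ctrl 2, HH_Ctrl 3 or HH_TBI 1 (adjusted p of 0.0553 to 0.0758), and Nme4 without any one of 9 libraries, that is, all but LL_TBI 1, LL_TBI 3 and HH_TBI 3 (adjusted p of 0.0603 to 0.118). After scaling by median ratios 7 members had the higher response in the LL mode and 2 in the HH mode, where 3.45% and 7.19% of all genes did. Without LL_TBI 2, the library richest in acinar transcripts, they were again 7 and 2, beside 2.65% and 6.16% of all genes. Tk1, Tyms and Entpd1 had differences of -0.44 ± 0.59, -0.78 ± 0.43 and 0.98 ± 0.40 (adjusted p = 0.717, 0.301 and 0.151), so a difference between the modes was not shown for them.

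Set directly against LL_TBI, HH_TBI had 0 members called in either direction, as 0 genes, or 0% of 13049, were called by limma over all genes. At an unadjusted p under 0.05 there were 5 members of 50, 1 higher and 4 lower, beside 11.2% of all genes. The median over the members was -0.23 beside -0.002 over all genes, and without LL_TBI 1 it was -0.04. Nt5e had the largest difference, 8.19, 6.94 and 13.4 FPKM in LL_TBI and 21.4, 24.9 and 47.2 FPKM in HH_TBI without overlap (1.67 ± 0.35, adjusted p = 0.3). It was called without LL_TBI 3 (adjusted p = 0.0192), where 1.3% of all genes were called higher. Its controls differed in the same direction.

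Genes that surround the pathway were counted from lists of related functions. Of 7 nucleoside transporters, 6 were tested after irradiation. Slc28a1, the sodium-coupled transporter for pyrimidine nucleosides in the absorptive lining, was at 17.8, 27.7 and 20.1 FPKM in HH_Ctrl and 6.88, 12.4 and 2.59 FPKM in HH_TBI and fell by 1.81 (standard error 0.50, adjusted p = 0.0256), without overlap. In the LL mode it was at 37.4, 42.5 and 41.6 FPKM in LL_Ctrl and 37.0, 18.9 and 11.4 FPKM in LL_TBI, also without overlap, and was not called (-1.01 ± 0.39, adjusted p = 0.244). The lowest values of both irradiated groups were in LL_TBI 3 and HH_TBI 3, the libraries in which Fabp6, a marker of the ileum, was at 82.2 and 586 FPKM, against 0.078 to 8.75 FPKM in the other 10. The summed level of 5 ileal genes was 185 to 240 FPKM in LL_Ctrl, 89.8 to 457 in LL_TBI, 258 to 454 in HH_Ctrl and 187 to 1154 in HH_TBI. The sum was 1154 FPKM in HH_TBI 3, 457 in LL_TBI 3 and 454 in HH_Ctrl 3. In HH_Ctrl 3 Slc28a1 lay between the other values of its group. Of the 5 ileal genes 3 were higher and 2 lower after each mode. Their part in the Slc28a1 result was not tested. Slc28a2, the purine-preferring transporter, was higher in HH_Ctrl than in LL_Ctrl (1.82 ± 0.17, adjusted p = 0.000234).

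In the folate cycle that serves thymidylate synthase, 0 of 9 genes were called after either mode. The median log2 fold change was 0.09 after LL and -0.03 after HH irradiation. Shmt1, which loads folate with a carbon unit, was the only one of them to pass the adjusted p after HH irradiation (-0.52 ± 0.16, adjusted p = 0.0395). Slc46a1, the folate transporter of the proximal intestine, was lower in HH_Ctrl than in LL_Ctrl (-1.08 ± 0.35, adjusted p = 0.04).

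Purine metabolism genes outside the set gave a comparison. Of 77 tested after HH irradiation 13 were upregulated and 2 downregulated, with a median log2 fold change of 0.22. The 50 tested pyrimidine metabolism genes had 2, 3 and -0.24. Of 36 DNA replication genes 0 were upregulated and 2 downregulated, with a median of -0.19. Of all genes 10.0% were upregulated and 2.38% downregulated, with a median of 0.09. After LL irradiation 0 of the 77 and 0 of the 36 were called, with medians of 0.05 and -0.10. Of all genes 0.170% were upregulated and 0.0772% downregulated in that mode, with a median of -0.12. These are counts side by side, and no test between the lists was made.

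Of the 57 genes 7 were under the limit of 0.5 FPKM in every comparison and were not tested. Nt5el was listed at 0 in every library, Nt5c1b in every library but HH_Ctrl 2 (0.056 FPKM), and Ak9 did not exceed 0.006 FPKM. Dpys, Nt5c1a, Upp2 and Entpd3 were at up to 0.082, 0.316, 0.761 and 0.693 FPKM. The remaining members not named with values so far, Cant1, Enpp3, Entpd8, Nt5c3 and Nt5c3b, were tested and not called in any comparison, with Cant1, Entpd8 and Nt5c3 past the adjusted p between the controls (0.31 ± 0.07, 0.25 ± 0.07 and -0.92 ± 0.10). For 13 members a gene on the opposite strand overlaps, Tk1 with Afmid among them, and whether reads were counted by strand is not given in the sources used here.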

How the data were processed

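RNA of the intestine was sequenced in 12 libraries. The deposited values are FPKM per gene, which the authors made with StringTie v1.3.1, and their differential expression came from DESeq2. Bowtie 0.12.2 and 3 builds (GRCm39, mm39 and mm8) stand in the submitters' processing notes with no role stated. The library preparation is described as removal of ribosomal RNA in the labels and as oligo(dT) selection in the methods. Columns were matched to samples by the sample titles.

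A model of group means was fitted in R 4.3.3 by limma 3.58.1 (trend on the mean) on log2(FPKM + 0.1), after a filter at a mean of 0.5 FPKM, with Benjamini-Hochberg adjustment over all genes tested. A count model was not used, since the values are FPKM. Pairs of groups were fitted on their 6 libraries, and the difference between the responses on all 12. Tables were made with pandas 2.3.3 and numpy 2.4.6 under Python 3.11.15, and plots with matplotlib 3.10.9. The procedure was tested on simulated data. Overlaps between genes were taken from the GENCODE annotation of GRCm38, and promoters from RefSeq.

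The members, the roles, the marker lists and the settings were chosen with earlier results of these data known. Genes were named if called in any comparison, if they belong to the synthesis, reductase, thymidylate, salvage or breakdown roles, if among the 5 highest or 5 lowest log2 fold changes of a comparison at a mean of at least 2 FPKM, or if under the filter. The alternatives were a pseudocount of 1, no filter, the adjusted p alone, the library number as a block, median-ratio scaling, pancreatic genes removed with rescaling, 1 fit of all libraries, the 6 controls pooled, omission of each library in turn, and, chosen after seeing the data, the other mode's controls and the removal of trends on GC content and length. Some single-gene results are not reported here.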

Additional observations from a re-analysis of the deposited data

Results flagged for a closer look

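For 3 pyrimidine metabolism genes the response to HH irradiation differed from the response to LL irradiation by limma's test of the difference itself over all genes. Cmpk1 had a difference of 1.354 on the log2 scale (adjusted p = 0.01), with a response of 1.31 in the HH mode and -0.04 in the LL mode. Dpyd had a difference of 1.082 (adjusted p = 0.0262), with responses of 0.41 and -0.67, and all 3 irradiated libraries of one mode moved up from their controls while all 3 of the other moved down. Nme4 had a difference of -0.829 (adjusted p = 0.0442), with responses of 0.50 and 1.33. Between the control groups Cmpk1 and Dpyd were lower in HH_Ctrl than in LL_Ctrl by 1.35 and 0.85, and Nme4 was higher by 0.67, and what set the control groups apart was not tested.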

How the results depend on the processing

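The library depth is unknown, 3 libraries stand for each group, and the LL_TBI libraries differ in acinar and ileal transcripts. The HH_TBI libraries also differ in ileal transcripts, with a sum of 5 ileal genes of 211, 187 and 1154 FPKM in HH_TBI 1, 2 and 3. After LL irradiation the single upregulated member, Nme4, was lost (0 called) with no filter, with median-ratio scaling, with all 6 control libraries and with trends on GC content and length removed. In these settings 0.0787%, 0.0697%, 1.1% and 0.147% of all genes were upregulated. All libraries in 1 fit gave 2 upregulated members, Cad and Nme4 (1.2% of all genes). HH_Ctrl in place of LL_Ctrl gave 4 higher and 1 lower (10.3% and 2.24% of all genes). After HH irradiation the adjusted p alone gave 8 higher and 16 lower (22.1% and 14.1% of all genes). All 6 control libraries gave 0 higher and 2 lower (4.02% and 2.17% of all genes). With LL_Ctrl in place of HH_Ctrl, 2 members were called higher and 4 lower, where 4.9% and 4.93% of all genes were. Cmpk1, Entpd1, Dctpp1 and Tyms lost their calls, Cmpk1 with a log2 fold change of -0.039 (adjusted p = 0.815). Tk1 kept its call (-1.14), while Nme4 and Nt5e were newly called as higher and Entpd5, Nudt2 and Upb1 as lower. Between the controls the adjusted p alone gave 12 higher and 13 lower (13.0% and 31.8% of all genes). In the difference between the responses, the members with the lower HH response numbered 0 with a pseudocount of 1, with no filter and with the replicate block. The shares of all genes there were 0.488%, 0.29% and 0.379%. They numbered 7 with median-ratio scaling and 6 with pancreatic genes removed, where 3.45% and 2.7% of all genes had the lower HH response. Removal of trends on GC content and length left 1 with the higher HH response, with Hddc2 in place of Nme4 as the lower (1.47% and 1.14% of all genes). The median of the members moved from 0.01 to -0.175 with it and to -0.163 with median-ratio scaling, as that of all genes moved from 0.18 to 0.005 and 0.008. The causes were not tested. With each library left out in turn, the members called after LL irradiation ranged from 0 to 1 higher and 0 to 2 lower with a median of -0.229 to 0.078, and after HH irradiation from 2 to 2 higher and 2 to 4 lower. Between the controls they ranged from 1 to 2 higher and 4 to 7 lower. Between the irradiated groups 0 to 1 were higher, with a median of -0.336 to -0.038, and in the difference 1 to 3 were higher and 0 to 7 lower, with a median of -0.201 to 0.048. The shares of all genes called moved with the omitted library too. In the difference they ran from 0.503% to 14.3% higher and from 0.031% to 2.65% lower. After LL irradiation they ran from 0% to 2.26% higher and from 0.00769% to 2.61% lower. Between the controls they ran from 1.92% to 3.01% higher and from 10.9% to 12.6% lower. The deviations of libraries with the same number had correlations of -0.09 to 0.29. They were positive for every number only between HH_TBI and HH_Ctrl (0.044, 0.171 and 0.242). The numbers were not taken as pairing the samples. Apart from the loss of Nme4 in the difference between the responses, the replicate block changed no call among the named members.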
